A study of Mus musculus with 3 samples.

Results

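The genes described here are 41 named genes of DNA replication and mitosis, listed by name. No measured value enters the rule, but the list was drawn up with earlier results of these data known. They were sought by symbol, current name or synonym among 16390 named genes with a probe on the array. A probe was matched to 39 of them, always 1 probe per gene, and 34 had a value on all 3 arrays, out of 10179 such genes in all. Cyclin genes Ccnd1 and Ccnb1 had no matched probe, Plk1 was blank on every array, and Bub1, Bub1b, Ndc80 and Kif11 were blank on some. Of the 25 genes of the G1/S side (entry into and execution of DNA synthesis) 24 were measured on all arrays, against 10 of the 16 genes of the G2/M side (preparation for and passage through mitosis), so the mitotic side rests on fewer genes.

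Liver RNA of female C57BL/6 mice was compared on 3 arrays with 2 colours. Every array set a sample, in Cy3, against untreated wild-type liver, in Cy5. The samples were wild-type liver after LPS/GalN, untreated liver of TMX-/- mice (TMX-null, lacking the thioredoxin-related transmembrane protein encoded by Tmx1) and TMX-/- liver after LPS/GalN, with 1 array each. Treatment was 3 ng of the bacterial product lipopolysaccharide (LPS) given together with 10 mg D-galactosamine (GalN) into the peritoneum, and livers were taken after 24 h. The age of the mice, how Tmx1 was deleted, and whether a channel held 1 mouse or a pool are facts not given in the sources used here.

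In the adult liver hepatocytes rest outside the cell cycle and can re-enter it after tissue loss or injury. Before DNA is copied, the ORC, CDC6 and CDT1 proteins load the MCM helicase onto replication origins, a step called licensing; cyclin E with CDK2 then helps to start synthesis, in which polymerases, clamp and clamp loader copy the strands. E2F transcription factors drive many of these genes, whereas genes of mitosis are switched on later, many through CHR and CCAAT elements bound by the DREAM, MuvB and NF-Y complexes. The comparison of the G1/S genes with the G2/M genes asks which phase of the cycle was the more visible in each liver.

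The promoters of the members carry these elements, and the stretches shown are those of the highest and the lowest member of each phase in treated TMX-null liver. Each runs from 250 bases before to 50 bases after the start site, is taken from RefSeq (GRCm38.p6) and is written 5′ to 3′ on the strand of the gene. Capitals mark every match to an E2F word (TTTCCCGC, TTTGGCGC, TTTCGCGC or TTTGCCGC), a CHR word (TTTGAA or TTCGAA) or a CCAAT box (CCAAT), on either strand. Pole2, the small subunit gene of DNA polymerase epsilon, lies at chr12:69228141-69228440 and Tk1, cytosolic thymidine kinase, at chr11:117825965-117826264. Bub1, a kinase of the spindle checkpoint, lies at chr2:127831810-127832109 and Cdc20, the activator of the anaphase-promoting complex, at chr4:118437294-118437593. All are minus-strand stretches.
Pole2: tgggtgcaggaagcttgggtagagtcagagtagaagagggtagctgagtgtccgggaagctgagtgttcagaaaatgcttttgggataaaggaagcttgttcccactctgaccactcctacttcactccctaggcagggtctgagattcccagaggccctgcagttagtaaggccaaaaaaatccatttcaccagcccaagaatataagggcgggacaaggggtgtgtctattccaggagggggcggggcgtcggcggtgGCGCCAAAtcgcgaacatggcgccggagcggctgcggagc
Tk1: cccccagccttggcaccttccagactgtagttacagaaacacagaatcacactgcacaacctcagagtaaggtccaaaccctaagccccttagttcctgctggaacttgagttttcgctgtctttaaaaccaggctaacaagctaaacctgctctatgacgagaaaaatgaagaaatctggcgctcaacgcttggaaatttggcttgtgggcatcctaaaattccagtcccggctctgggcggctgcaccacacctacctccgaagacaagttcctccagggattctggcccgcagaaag
Bub1: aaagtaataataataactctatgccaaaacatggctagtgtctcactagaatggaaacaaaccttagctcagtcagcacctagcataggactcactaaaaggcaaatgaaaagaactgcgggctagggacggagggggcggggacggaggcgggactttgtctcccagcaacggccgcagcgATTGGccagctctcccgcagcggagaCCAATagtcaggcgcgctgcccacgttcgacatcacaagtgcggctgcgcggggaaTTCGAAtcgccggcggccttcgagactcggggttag
Cdc20: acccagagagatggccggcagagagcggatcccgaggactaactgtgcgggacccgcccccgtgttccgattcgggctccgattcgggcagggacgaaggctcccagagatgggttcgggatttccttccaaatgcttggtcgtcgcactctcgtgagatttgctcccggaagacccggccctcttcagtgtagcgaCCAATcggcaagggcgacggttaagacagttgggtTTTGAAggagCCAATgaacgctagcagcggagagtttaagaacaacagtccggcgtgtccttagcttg
Pole2 holds an E2F word just after its start site and no CHR word or CCAAT box. Tk1 holds none of these words in the window. Bub1 and Cdc20 each hold a CHR word beside a pair of CCAAT boxes.

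For the licensing genes, the stretch around the E2F word is shown (the word in capitals, with up to 11 bases on each side, RefSeq GRCm38.p6), because these genes had the highest ratios as a group. A gene with several words is shown with 1 of them.
Mcm3, chr1:20820275-20820304, minus strand: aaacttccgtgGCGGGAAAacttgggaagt
Mcm5, chr8:75109349-75109378, plus strand: caagaactttcGCGCCAAAacgtccagcct
Mcm6, chr1:128359734-128359763, minus strand: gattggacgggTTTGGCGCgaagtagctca
Mcm7, chr5:138171849-138171878, minus strand: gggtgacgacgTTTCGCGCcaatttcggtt
Cdt1, chr8:122568036-122568064, plus strand: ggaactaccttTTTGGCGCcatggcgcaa
Cdc6, chr11:98908002-98908031, plus strand: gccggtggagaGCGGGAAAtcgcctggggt
Measured from the start site, the first base of these words lies 20 bases after it in Mcm3, 149 before in Mcm5, 47 before in Mcm6, 17 after in Mcm7, 33 after in Cdt1 and 138 before in Cdc6. Mcm2 held no E2F word in this window but a CHR word 70 bases before the start. No promoter entry was matched for Mcm4.

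Promoter stretches were matched for 35 of the 41 members. An E2F word was present in 10 of 25 stretches of G1/S members (40.0%), in 1 of 14 of G2/M members (7.14%, Cdk1) and in 2.26% of all 32851 promoters of the table. CHR words showed the reverse, with 11 of 14 stretches of G2/M members (78.6%), 4 of 25 of G1/S members (16.0%) and 19.2% of all promoters. A CCAAT box was found in 11 of 14 stretches of G2/M members (78.6%), in 12 of 25 of G1/S members (48.0%) and in 37.4% of all promoters. Against the 10484 promoters of genes measured on all arrays, a background chosen after the data were seen, the shares were 3.59% for E2F, 14.3% for CHR and 37.3% for CCAAT. Matches describe letters in this window and are not evidence of binding.

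**Figure D1:**
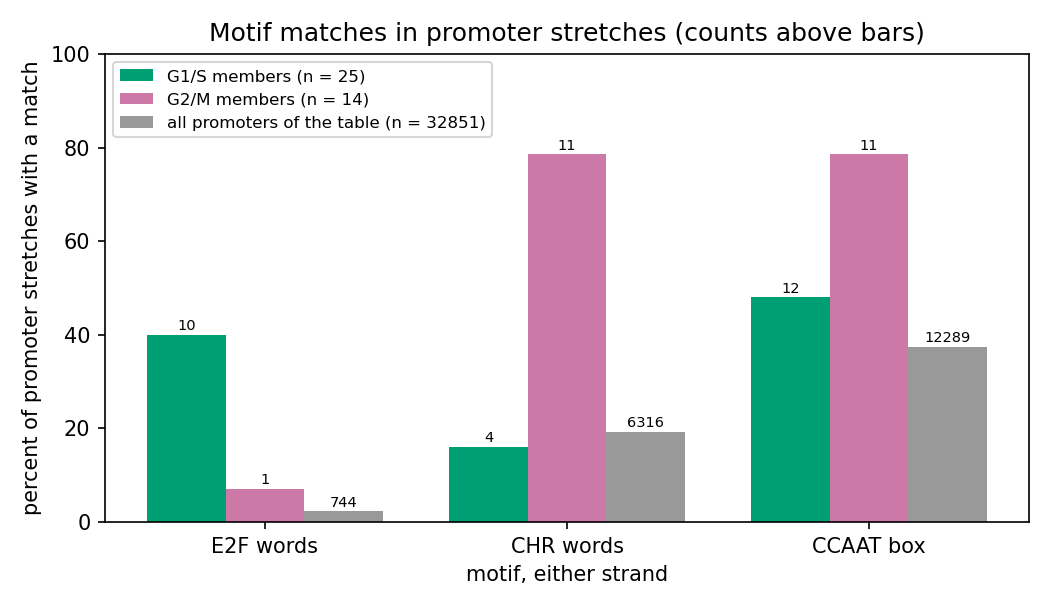
Percent of promoter stretches with at least 1 match to E2F words, CHR words or a CCAAT box, for stretches of G1/S members (n = 25), G2/M members (n = 14) and all promoters of the RefSeq table (n = 32851), with counts above the bars. E2F words stand at 40.0% in G1/S members and CHR words at 78.6% in G2/M members, against 2.26% and 19.2% of all promoters.

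Values are log2 ratios of sample over untreated wild-type liver, centred on the median of the 10179 genes of each array. Tmx1, the targeted gene, stood at -2.96 in untreated and -3.88 in treated TMX-null liver and at 0.59 in treated wild-type liver. It was the lowest gene of the untreated TMX-null array, and the direction of the ratio rests on it, since the labels do not state the numerator. With the opposite numerator every sign below turns. There is 1 array per group, so no difference was tested against the spread between mice. The SD of a single probe, from 81 genes with 2 probes, was 0.42 in treated wild-type, 0.42 in untreated TMX-null and 0.76 in treated TMX-null liver, and it leaves out differences between mice. A gene is counted as different at 2-fold, a log2 value of 1 either way. In whole liver, more RNA per cell and more cells of a type cannot be told apart.

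In treated TMX-null liver the replication genes lay high as a group, led by the licensing genes, while the mitotic genes were mixed. Of the 34 members measured on all arrays, 20 were at least 2-fold higher than untreated wild-type liver and 2 were lower, where 13.6% of all genes were higher and 13.2% lower. The median of the members was 1.14, and the range ran from -2.20 (Tk1) to 3.01 (Pole2). In treated wild-type liver 3 of 34 were higher and 0 lower (2.8% and 1.75% of all genes), and the median was 0.26. In untreated TMX-null liver 2 were higher and 0 lower (1.78% and 0.835% of all genes), and the median was 0.18. The treated TMX-null array had the widest spread over all genes, at an SD of 1.04 against 0.48 and 0.40. With the arrays scaled to the same spread, 10 members were past 2-fold there (9 higher and 1 lower, against 10.5% of all genes in either direction), 5 in treated wild-type liver (14.7%, against 10% of all genes) and 9 in untreated TMX-null liver (26.5%, against 10.4%). The share in untreated TMX-null liver was then close to the 29.4% in treated TMX-null liver.

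**Figure D2:**
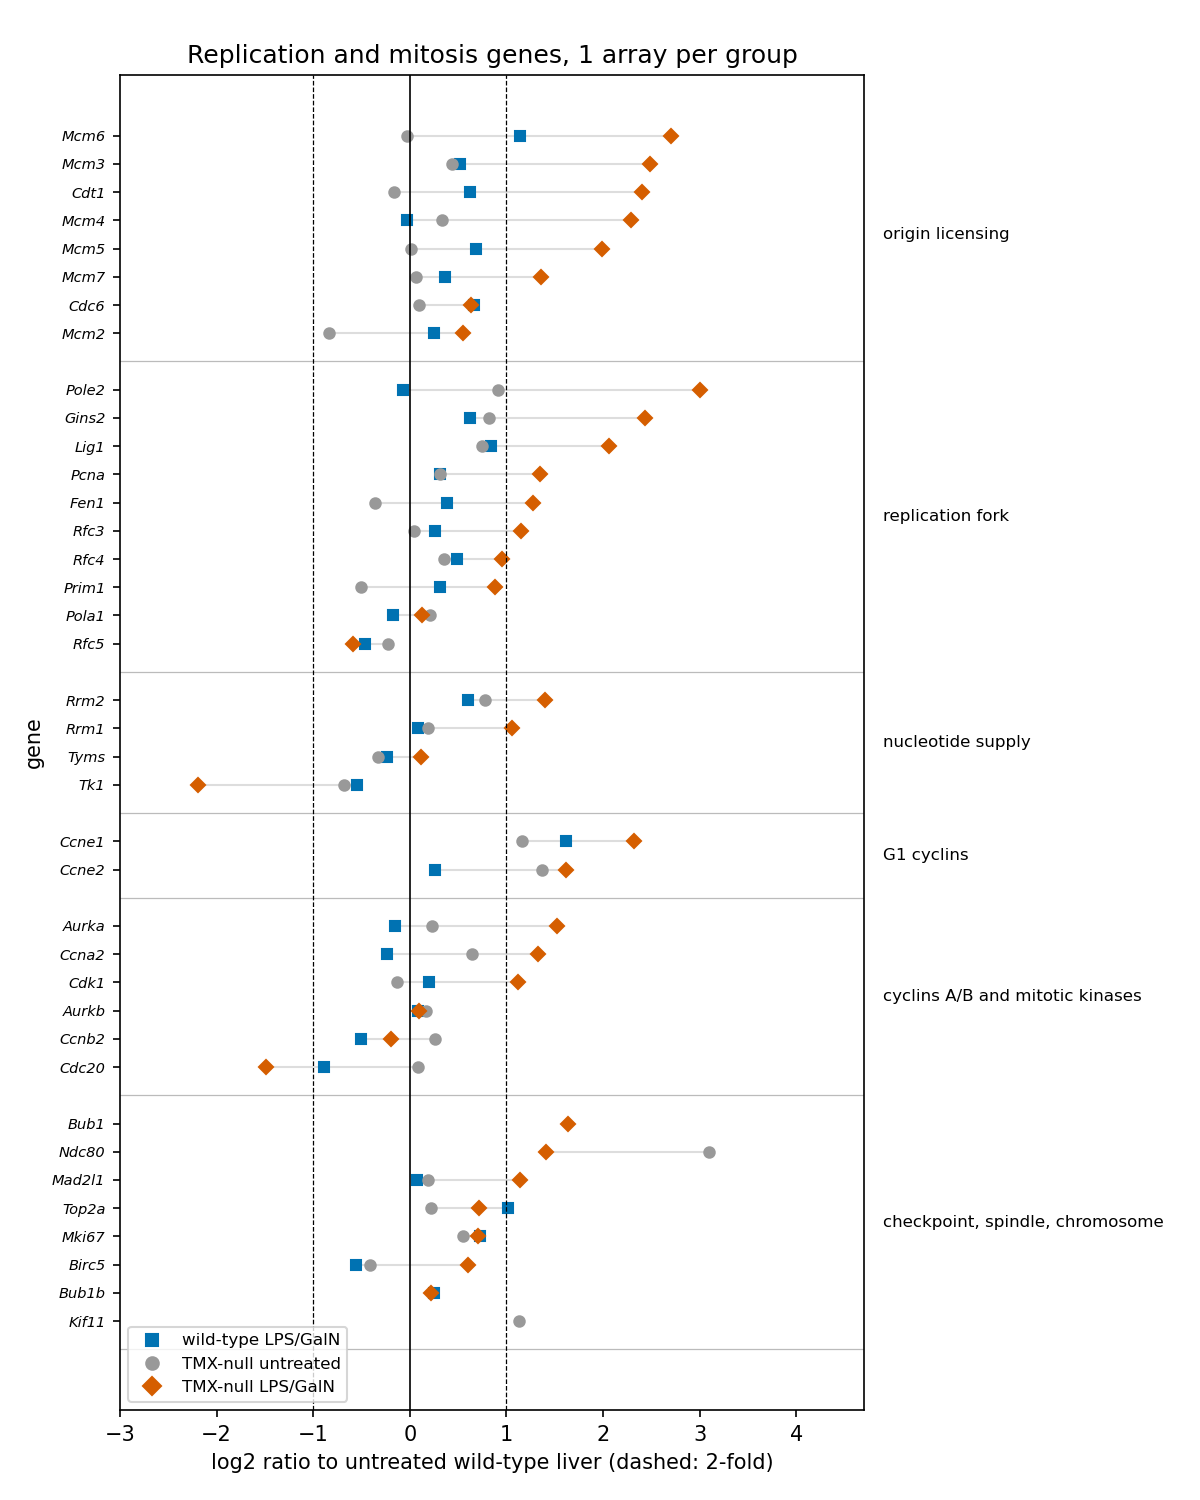
Log2 ratio to untreated wild-type liver (x axis, dashed lines at 2-fold) of every member with a value, by role, with 1 symbol per array (squares for wild-type LPS/GalN, circles for TMX-null untreated, diamonds for TMX-null LPS/GalN) and a grey line joining the values of a gene. The diamonds of 6 of the 8 licensing genes lie past 2-fold, up to 2.71 for Mcm6, whereas Tk1 (-2.20) and Cdc20 (-1.49) lie on the other side.

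The MCM helicase genes all lay above 0 in treated TMX-null liver, and 5 of the 6 were past 2-fold. Mcm6 stood at 1.14 in treated wild-type, -0.03 in untreated TMX-null and 2.71 in treated TMX-null liver, which is 6.53-fold above untreated wild-type liver and rank 105 from the highest of 10179 genes. Mcm3 stood at 0.52, 0.43 and 2.48 on the same arrays, in that order. Mcm4 stood at -0.03, 0.33 and 2.29. These subunits were high only on the treated TMX-null array, with the exception of Mcm6, which was also past 2-fold in treated wild-type liver. Mcm5 stood at 0.69, 0.01 and 1.98. Mcm7 stood at 0.36, 0.06 and 1.35. Mcm2 was the exception in treated TMX-null liver, with 0.25, -0.83 and 0.55. Mcm2 was the lowest subunit in untreated TMX-null liver, and against that liver all 6 subunits were at least 2-fold higher after treatment, from 1.29 (Mcm7) to 2.73 (Mcm6), with Mcm2 at 1.39.

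The proteins that load this helicase differed from each other. Cdt1 stood at 0.62 in treated wild-type, -0.17 in untreated TMX-null and 2.40 in treated TMX-null liver. Cdc6 stood at 0.67, 0.10 and 0.63. The treated livers differed in Cdc6 by -0.04, less than the SD of a single probe, and in Cdt1 by 1.78. The 8 licensing genes had medians of 0.57, 0.04 and 2.14 on the arrays in the same order, and 7 of 8 lay above 0 in treated wild-type liver with 1 (Mcm6) at 2-fold.

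Genes of the replication fork followed with a wider range. Pole2 stood at -0.07 in treated wild-type, 0.91 in untreated TMX-null and 3.01 in treated TMX-null liver (8.03-fold, rank 61 from the highest). Gins2, a subunit of the GINS complex that activates the helicase, stood at 0.62, 0.82 and 2.44. Lig1, the ligase that seals Okazaki fragments, stood at 0.84, 0.74 and 2.07. Each of these was highest in treated TMX-null liver, but all were also between 0.74 and 0.91 in untreated TMX-null liver, near 2-fold. Pcna, the sliding clamp, stood at 0.32, 0.31 and 1.35. Fen1, the flap nuclease, stood at 0.39, -0.36 and 1.27. Of the clamp loader genes, Rfc3 stood at 0.26, 0.04 and 1.15. The other clamp loader genes did not pass 2-fold. Rfc4 stood at 0.49, 0.35 and 0.96, just inside the threshold, and Rfc5 at -0.46, -0.22 and -0.58. The primase gene Prim1 stood at 0.31, -0.51 and 0.89, and Pola1, the catalytic subunit of its partner polymerase alpha, at -0.18, 0.20 and 0.13. The 10 fork genes therefore divided into 6 at or past 2-fold in treated TMX-null liver and 4 inside it, of which Rfc5 alone lay below 0.

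Genes of nucleotide supply lay on both sides of 0. Rrm2, the cycle-regulated subunit of ribonucleotide reductase, stood at 0.60 in treated wild-type, 0.77 in untreated TMX-null and 1.39 in treated TMX-null liver. Its partner Rrm1 stood at 0.09, 0.19 and 1.06. Tyms, thymidylate synthase, stood at -0.23, -0.33 and 0.12. Tk1, the salvage enzyme for thymidine, ran opposite to the reductase genes. It stood at -0.55, -0.69 and -2.20, a level 4.59-fold below the reference in treated TMX-null liver, and it was the lowest member on that array. Tk1 rests on 1 probe, as does every member.

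The cyclin E genes were the only members past 2-fold in untreated TMX-null liver among those measured on all arrays. Ccne1 stood at 1.62 in treated wild-type, 1.16 in untreated TMX-null and 2.32 in treated TMX-null liver, so it was past 2-fold on all 3. Ccne2 stood at 0.26, 1.37 and 1.62. Ccne2 was nearly as high in untreated as in treated TMX-null liver, with a difference of 0.25, against 1.15 for Ccne1. The ratios of a gene on the 3 arrays share the untreated wild-type liver. They also share the dyes, Cy3 for the sample and Cy5 for the reference. A dye effect of a gene high on all 3 arrays therefore cannot be told apart from a difference in RNA.

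Among the drivers of mitosis some were high and others were not. Aurka, the centrosomal Aurora kinase, stood at -0.15 in treated wild-type, 0.23 in untreated TMX-null and 1.52 in treated TMX-null liver. Ccna2, which acts in S phase and G2, stood at -0.24, 0.64 and 1.33. Cdk1, the kinase of mitotic entry, stood at 0.20, -0.14 and 1.12. These were past 2-fold on the treated TMX-null array alone. Aurkb, the kinase of the chromosomal passenger complex, stood at 0.09, 0.16 and 0.09, and the mitotic cyclin gene Ccnb2 at -0.51, 0.26 and -0.19. Cdc20 stood at -0.89, 0.08 and -1.49, the lowest G2/M value in both treated livers.

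Of the genes of the spindle checkpoint, kinetochore and chromosomes, 4 were measured on all arrays. In treated TMX-null liver 1 of these was at least 2-fold higher (25%, against 13.6% of all genes). Mad2l1, a checkpoint protein, stood at 0.08 in treated wild-type, 0.18 in untreated TMX-null and 1.14 in treated TMX-null liver. Birc5, survivin of the passenger complex, stood at -0.55, -0.41 and 0.60. Top2a, topoisomerase II alpha, stood at 1.02, 0.22 and 0.72, and was the only G2/M member past 2-fold in treated wild-type liver. Mki67, the gene of the proliferation antigen Ki-67, stood at 0.73, 0.55 and 0.70 and hardly differed between the arrays. Members with blanks are given apart, since the rule behind blank cells is not given. Bub1 had a value in treated TMX-null liver alone, at 1.64. Bub1b, its relative in the checkpoint, stood at 0.25 in wild-type and 0.22 in TMX-null liver after treatment. Ndc80, the microtubule-binding kinetochore gene, stood at 3.09 in untreated and 1.41 in treated TMX-null liver, and Kif11, the spindle motor, at 1.13 in untreated TMX-null liver alone. Ndc80 and Kif11 bring the members past 2-fold in untreated TMX-null liver from 2 to 4 when members with blanks are counted.

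The median of the G1/S members lay above that of the G2/M members in both treated livers, but their ranges overlapped. In treated TMX-null liver the G1/S median was 1.35 (16 of 24 higher, 1 lower), where 13.6% of all genes were higher and 13.2% lower. The G2/M median was 0.71 (4 of 10 higher, 1 lower), so the G2/M share of higher members, 40%, was also above that of all genes. The difference of 0.64 between the medians could not be tested. The 8 licensing genes with Pole2 had a median of 2.29, which is 1.58 above the G2/M genes. Of the 24 G1/S members, 10 lay above the highest G2/M member measured on all arrays (Aurka, 1.52), and 9 lay above Bub1. Counting the members with blanks on other arrays, 6 of 13 G2/M members were higher and 1 lower. That count has no background, since the share of all genes covers only genes measured on all arrays and Bub1 has a value on this array alone. Among G1/S members with a promoter entry, the 10 with an E2F word had a median of 2.03 (8 higher). The 11 without one had a median of 0.96 (5 higher). Mcm3, Mcm5, Mcm6, Mcm7 and Cdt1 hold the word, so this split overlaps with licensing. By CCAAT box, the G1/S medians were 1.35 with and 1.12 without. The G2/M medians, members with blanks included, were 0.72 with a CHR word and 0.87 without (9 and 2 genes). By CCAAT box they were 0.71 and 1.14 (8 and 3 genes). These splits describe chosen genes. In treated wild-type liver the medians of the phases were 0.34 and -0.04, a difference of 0.38, and 19 of 24 G1/S members lay above the G2/M median. In untreated TMX-null liver they were 0.14 and 0.20, a difference of -0.06. Even there 6 of 24 G1/S members lay above the highest G2/M member measured on all arrays (0.64), as the G1/S side holds more genes. With the arrays scaled to the same spread, the treated TMX-null array kept 9 of 24 G1/S members at least 2-fold higher and 0 of 10 G2/M members, where 4.97% of all genes were higher, a share at which none of 10 is no result about the G2/M members.

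**Figure D3:**
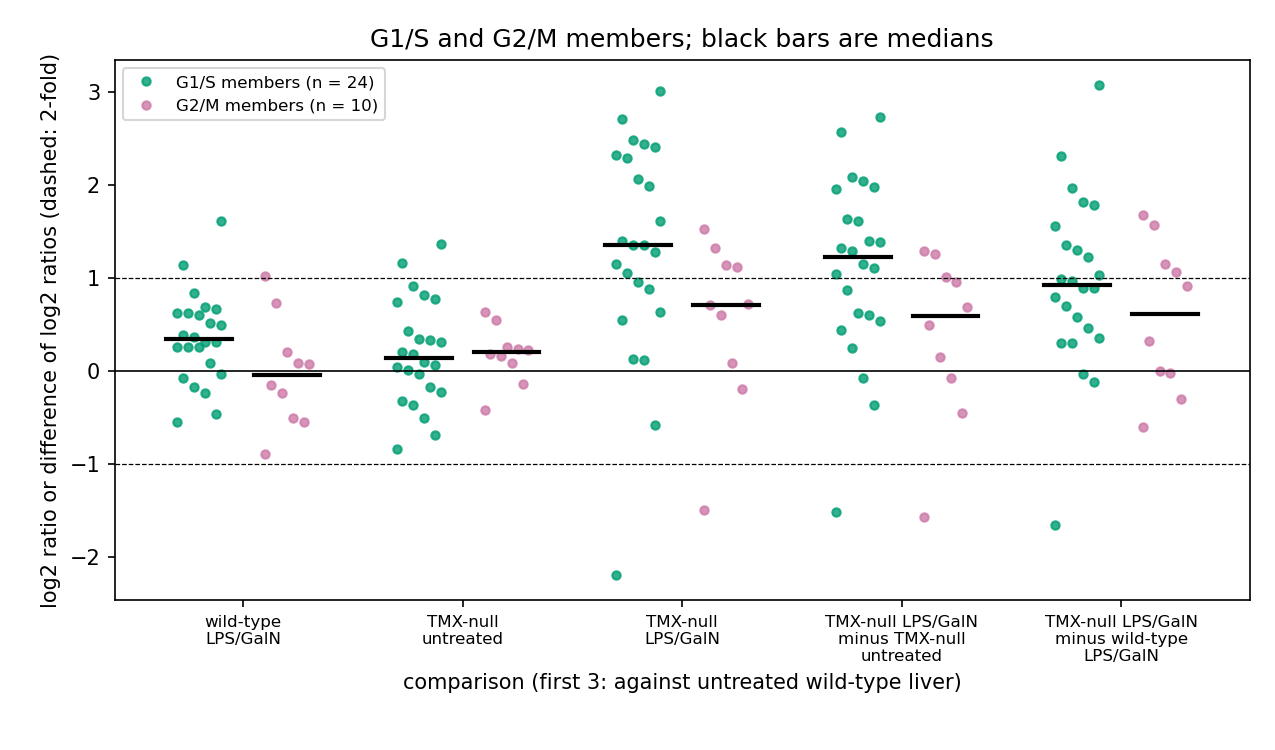
Log2 ratio, or difference of log2 ratios, of the 24 G1/S and 10 G2/M members measured on all arrays, for the 3 arrays and for 2 differences between them, with 1 point per gene and black bars at the medians. In treated TMX-null liver the bars stand at 1.35 and 0.71, and in untreated TMX-null liver at 0.14 and 0.20.

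Treated against untreated TMX-null liver compared the livers of that genotype, with the reference cancelling as long as both arrays held RNA of the same preparation. At 2-fold, 18 of 34 members were higher and 2 lower, where 11.4% of all genes were higher and 12.1% lower, and the median was 1.03. The G1/S median was 1.22 (15 of 24 higher) and the G2/M median 0.59 (3 of 10 higher), and 12 of the G1/S members lay above Aurka (1.29), the highest G2/M member. The difference of these medians, 0.63, was 0.43 with the arrays scaled to the same spread. It was 0.27 without Ccna2, Top2a and Mki67, which act across phases. Mcm6 (2.73), Cdt1 (2.57), Pole2 (2.09) and Mcm3 (2.05) were the highest members, and Cdc20 (-1.57) and Tk1 (-1.51) the lowest. Fen1 (1.64), Prim1 (1.40) and Mcm2 (1.39) stood out more here than against wild-type liver, as each lay below 0 in untreated TMX-null liver. With the arrays scaled to the same spread the median of the members was 0.35, with 7 higher and 2 lower, where 6.56% of all genes were higher and 14% past 2-fold in either direction.

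After LPS/GalN the TMX-null liver was set against the wild-type liver. At 2-fold, 14 of 34 members were higher and 1 lower, where 9.64% of all genes were higher and 10.6% lower, and the median was 0.90. Pole2 (3.08), Mcm4 (2.31), Mcm3 (1.96), Gins2 (1.82) and Cdt1 (1.78) led, and Tk1 (-1.65) was the only one lower. Aurka (1.68), Ccna2 (1.57) and Birc5 (1.15) stood high among the G2/M genes. Cdc6 (-0.04), Mki67 (-0.03), Aurkb and Top2a (-0.30) differed between the treated livers by less than the 0.59 of a single probe. The phases were closer than in the comparisons above, with medians of 0.93 for G1/S and 0.62 for G2/M, and their order turned with the arrays scaled to the same spread, at a difference of -0.18. Members past 2-fold then numbered 5 (14.7%, against 9.7% of all genes).

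The difference of the responses of the genotypes sets the TMX-null difference above against the wild-type ratio, and the reference enters it once. At 2-fold, 12 of 34 members were higher and 0 lower, where 9.82% of all genes were higher and 11.6% lower, with a median of 0.82. Pole2 (2.17), Mcm4 (1.98), Cdt1 (1.95), Mcm6 (1.59), Birc5 (1.57) and Mcm3 (1.53) led, whereas Ccne1 (-0.46), Mki67 (-0.58), Cdc20 (-0.68) and Tk1 (-0.97) lay below 0. With the arrays scaled to the same spread, 2 were higher and 6 lower, where 23.2% of all genes were past 2-fold, and the median was 0.22. The members' share of 23.5% is then that of all genes, so the excess of higher members depends on the unequal spread. The G1/S and G2/M medians were 0.82 and 0.47, and without Ccna2, Top2a and Mki67, which act across phases, their difference was -0.06.

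Other genes of the cycle, from lists that hold no member, had the same order of the phases in treated TMX-null liver when measured on all arrays. Of 36 further S phase genes measured on all arrays, 12 were at least 2-fold higher and 1 lower, with a median of 0.61. Uhrf1, which brings the maintenance methyltransferase to new DNA, stood at 2.64, the deoxycytidine kinase gene Dck at 1.94 and Dnmt1, that methyltransferase, at 1.84. Mcm10, a replication initiation factor, was the lowest at -3.64. Of 26 further G2/M genes, 5 were higher and 0 lower, with a median of 0.25. Hmgb2 (1.72), Ckap2 (1.58) and the condensin gene Ncapd2 (1.23) were the highest of these 26, which were measured on all arrays. The shares of higher genes were thus 33.3% and 19.2%, against 13.6% of all genes. This gap in shares rests on genes measured on all arrays, and it nearly closes when the genes given next are counted too. Several of those have a value on the treated TMX-null array alone. Among G2/M genes blank on another array, Cenph (2.95), Cdca8 (2.00), Kif18a (1.60), Tacc3 (1.23), Tpx2 (1.21), Aspm (1.12) and Ttk (1.07) were also higher. Anln (0.76), Kif20a (0.40), Melk (-0.12) and Ect2 (-0.47) were not. Among such S phase genes Dbf4 (1.73) and Rad51ap1 (1.73) were higher, and Prim2 (0.91), Chaf1a (0.55), Brca1 (0.55) and Chaf1b (0.22) were not. In treated wild-type liver 1 of the 36 and 1 of the 26 were higher, near the 2.8% of all genes. Both medians were 0.19, so the order of the phases seen among the members there was not seen in these lists.

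Of 17 genes of the G1 machinery and E2F family measured on all arrays, 3 were higher in treated TMX-null liver. These were E2f3 (1.83), Myc (1.52) and Skp2 (1.09), and 2 were lower, Cdk6 (-1.63) and the E2F partner Tfdp2 (-1.50). These shares, 17.6% and 11.8%, were near those of all genes (13.6% and 13.2%). Of the genes of this list with blanks, E2f7 stood at 1.53, E2f4 at 0.93 and E2f2 at 0.42 in treated TMX-null liver. In treated wild-type liver 0 of the 17 were higher. The genes with blanks stood there at 2.60 (Mycn), 2.45 (E2f8), 2.12 (E2f7), 0.78 (Lin9), 0.47 (Mybl2) and -0.77 (E2f2). Among 14 genes that hold the cycle back, Cdkn1a, which encodes the CDK inhibitor p21, stood at 3.18 in treated wild-type, 0.20 in untreated TMX-null and 4.33 in treated TMX-null liver. Btg2 (1.47) and the pocket protein gene Rbl1 (1.32) were the other two that were higher, and Tob1 (-1.49) and the CDK inhibitor gene Cdkn1c (-1.18) were lower, shares of 21.4% and 14.3%. Cdkn1a was thus high in both treated livers, the licensing genes mainly in the TMX-null one. Of 18 genes of the DNA damage checkpoint 6 were higher (33.3%) and 0 lower, with a median of 0.60, led by Chek2 (1.55), Mre11a (1.51) and Mdm2 (1.37).

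**Figure D4:**
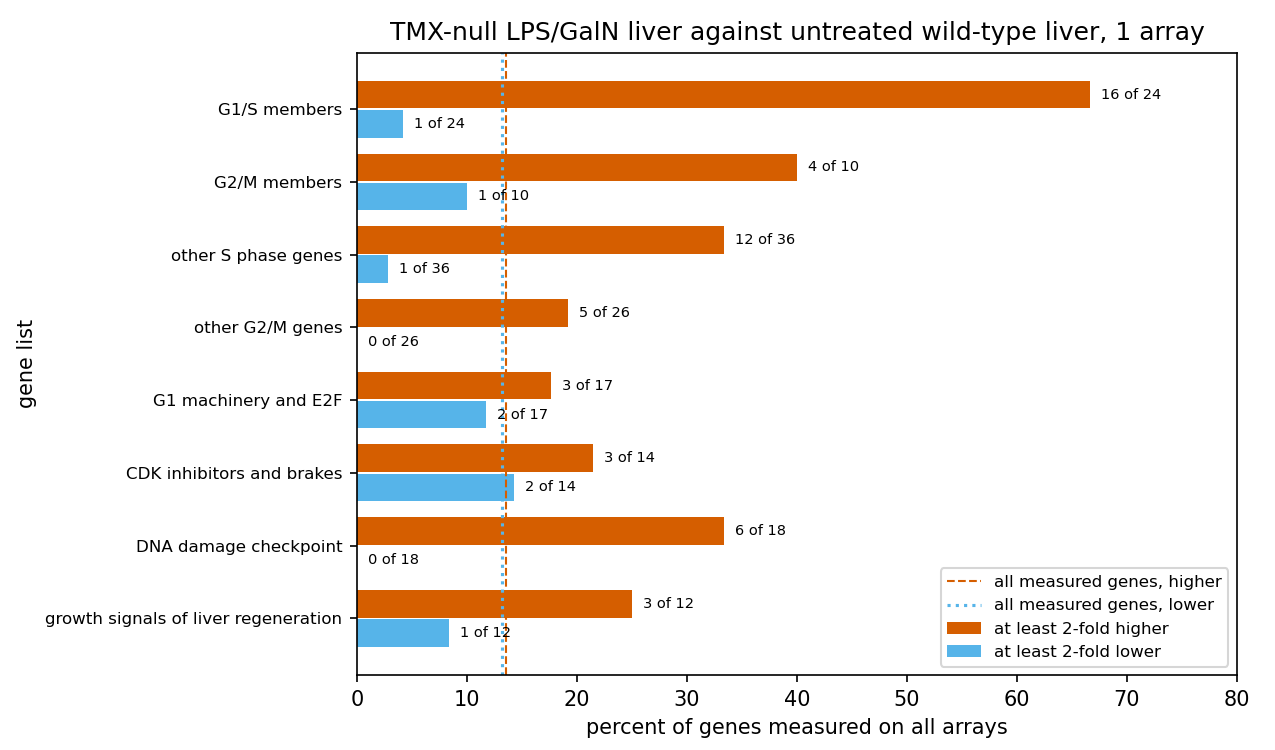
Percent of genes at least 2-fold higher or lower in treated TMX-null liver against untreated wild-type liver, for the members of each phase and 6 further lists, with counts beside the bars and lines at the share of all measured genes (13.6% higher and 13.2% lower). Only genes measured on all arrays are counted. G1/S members stand at 16 of 24 and further S phase genes at 12 of 36, G2/M members at 4 of 10 and further G2/M genes at 5 of 26.

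Markers of several other cell types also lay high on the treated TMX-null array, where 13.6% of all genes were higher and 13.2% lower. In treated TMX-null liver monocyte and neutrophil markers had a median of 2.53 (5 of 6 higher, 1 lower, from Ly6g at -2.50 to S100a9 at 4.45), macrophage markers 1.45 (9 of 11 higher, from Csf1r at -0.19 to Marco at 4.10), T and NK cell markers 1.36 (3 of 6, from Cd3d at 0.43 to Gzma at 2.40) and stellate cell markers 1.18 (4 of 7, from Reln at -0.35 to Acta2 at 3.31). Sinusoidal endothelium (0.42, 2 of 7 higher), B and plasma cell (0.41, 2 of 5 higher and 1 lower), cholangiocyte and progenitor (0.38, 1 of 6 higher) and erythroid markers (-0.80, 1 of 4 higher and 1 lower) had medians nearer to or below 0. Hepatocyte markers had a median of -1.92 (7 of 11 lower, from Cyp2e1 at -4.47 to Apob at -0.14). In treated wild-type liver macrophage markers had a median of 1.16 (8 of 11 higher, against 2.8% of all genes). Monocyte and neutrophil markers stood at 0.65 (1 of 6), T and NK cell markers at 0.66 (2 of 6) and stellate cell markers at 0.51 (1 of 7). Licensing genes had a median of 0.57 there. In untreated TMX-null liver the medians of these marker lists were 0.79, -0.01, 0.73 and 0.18, in that order, and that of the licensing genes was 0.04. The table holds ratios and no levels, so neither the presence of a marker nor the cell type that holds the cycle genes can be read from it, and the part of other cells in these results was not tested.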

How the data were processed

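Liver RNA was amplified as amino allyl RNA, coupled to Cy5 (untreated wild-type) or Cy3 (sample) and processed as the array maker Toray advises, per the labels' protocols. The authors deposited log ratios in 1 table, taken here to be log2. Not given in the sources used here are the logarithm's base, the numerator, the normalization with any background correction, and the rule for blanks. If the logarithm is natural, every fold is raised to the power 1.44. The table holds no signals, so dim probes cannot be told apart, and precision is limited by the small number of arrays.

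Of 23473 rows, 16631 had 1 symbol in GEO's platform annotation, 0 had several and 6842 had none. Symbols were updated through RefSeq (GRCm38.p6): 12622 were current, 3947 were renamed and 62 were kept. Probes of a gene were averaged, and each array was centred on its median over the 10179 named genes measured on all 3 arrays (-0.05, -0.03 and -0.07). No test was made, with 1 array per group. The code was tested on simulated data.

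Every member is named. Other lists were named by the 3 highest and 3 lowest genes past 2-fold in treated TMX-null liver, with Cdkn1a always, and marker lists by their highest and lowest gene. Members and lists were chosen with earlier results of these data known. Python 3.11.15, pandas 2.3.3 and matplotlib 3.10.9 were used. Alternatives covered the centring, the spread of the arrays, the genes entering, the probe, the fold, the phases, the base and the direction.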

Additional observations from a re-analysis of the deposited data

Results flagged for a closer look

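Birc5, survivin of the chromosomal passenger complex, differed in opposite directions after LPS/GalN in the 2 genotypes. It stood at -0.55 in treated against untreated wild-type liver and at 1.01 in treated against untreated TMX-null liver, each further from 0 than the SD of a single probe (0.42 and 0.67). It was singled out because the responses point opposite ways, and the difference was not tested, since each group has 1 array.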

How the results depend on the processing

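No paired analysis was possible because each group has 1 array. Centring the arrays on all rows or leaving the values as deposited, and taking the probe with the largest value, moved the medians of all the members by at most 0.07 and their counts past 2-fold by at most 2. If the ratio ran from reference to sample, the medians of the members would be -0.26 (treated wild-type), -1.14 (treated TMX-null), -1.03 (treated against untreated TMX-null), -0.90 (treated TMX-null against treated wild-type) and -0.82 (difference of responses), those of the G1/S members -1.35 and -1.22 in the first TMX-null comparisons, and the G1/S minus G2/M differences -0.38, -0.64, -0.63, -0.31 and -0.35.

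Arrays scaled to the same spread gave 5 members past 2-fold in treated wild-type, 9 in untreated TMX-null and 10 in treated TMX-null liver, 9 and 5 in the next comparisons, and a median of 0.35 for treated against untreated TMX-null liver. At 1.5-fold the counts were 11 in treated wild-type and 9 in untreated TMX-null liver, 23 for TMX-null against wild-type after treatment and 22 for the difference of responses. At 3-fold they were 1, 0 and 11 on the arrays and 8, 7 and 4 in the differences. With a natural logarithm they were 6 and 7 in treated wild-type and untreated TMX-null liver and 20 for the difference of responses. Counting members with blanks gave 4 in untreated TMX-null liver. Licensing genes with Pole2 against G2/M genes gave differences of 1.58, 1.38, 0.95 and 1.06 in the comparisons that include treated TMX-null liver. In untreated TMX-null liver the difference of the phases was 0.02 with means in place of medians. No signals were at hand to say which members were dim.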

Other observations

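Signalling genes of liver regeneration, ligands and receptors among them, numbered 12 with a value on all arrays. Of these, 3 were higher in treated TMX-null liver (25.0%, against 13.6% of all genes). They were Hbegf (1.37), a ligand of the EGF receptor, Hgf (1.27), the hepatocyte growth factor, and the TGF-beta receptor gene Tgfbr2 (1.24). Egfr alone was lower, at -1.22 (8.33%, against 13.2%). The median of the list was 0.16 there and 0.09 in treated wild-type liver, where 0 of 12 were past 2-fold.

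In treated TMX-null liver erythroid markers ran from Klf1 at -2.04 to the transferrin receptor gene Tfrc at 1.57, sinusoidal endothelium markers from Kdr at -0.60 to Lyve1 at 1.72, cholangiocyte and progenitor markers from Krt19 at 0.06 to Spp1 at 1.65, and B and plasma cell markers from Sdc1 at -1.46 to Cd79b at 1.66. Tfrc was also high in treated wild-type liver, at 1.97, where Klf1 stood at -1.34.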
